A study of Sus scrofa with 12 samples.

Results

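The response of the liver to cold was compared between Hezuo and Bama pigs, as the cold effect in Hezuo pigs minus the cold effect in Bama pigs, gene by gene and circRNA by circRNA. All 12 of the 12 libraries of the study entered this comparison. The 4 groups were Bama pigs at room temperature (23 ± 2 °C), Bama pigs in the cold (-15 ± 2 °C), Hezuo pigs at room temperature and Hezuo pigs in the cold, each with 3 pigs whose liver was taken at day 15 of its temperature. The labels name no genetic change or drug in any group, and they give neither the sex nor the age of the animals. The study set out to find RNAs tied to the cold resistance of Hezuo pigs, a small breed of the Gansu highlands, while Bama pigs are a miniature breed of southern China. Total RNA freed of ribosomal RNA was sequenced, and the tables give estimated counts for genes and back-splice counts for circRNAs, which are closed RNA loops formed when the end of a later exon is joined to the start of an earlier one. In bulk liver, fewer cells of a type and less RNA per cell cannot be told apart.

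Cold raises the demand for fuel. The liver answers by taking up fatty acids from adipose tissue, burning them in mitochondria and peroxisomes, storing the surplus in lipid droplets, exporting lipoproteins and making ketone bodies and glucose, and the fatty acid receptor PPARA switches on many of the genes involved. Breakdown of amino acids feeds glucose production and sends nitrogen into the urea cycle.

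Gene counts totalled 20041285 to 30188037 per library and back-splice counts 39117 to 75616. Albumin's share of the gene counts was 8.24% to 8.67% in Bama controls and 1.53% to 7.12% in cold Bama livers, and 9.42% to 12.01% and then 3.05% to 9.78% in Hezuo pigs. RNA from the Y chromosome was present in 6 of 6 Hezuo libraries, in 0 of 3 Bama controls and in 2 of 3 cold Bama livers, replicates 1 and 3. The cold effect in Bama pigs, and with it every difference between the breeds given here, therefore cannot be told apart in full from this difference between animals. Without those 2 libraries replicate 2 alone stands for the Bama cold group, and 1 gene and 3 circRNAs were called for cold in Bama pigs, against 125 and 14 with them. Of the 21 genes of the naming rule that were called for cold in Bama pigs, 20 kept their sign without them and 0 were called, with adjusted p from 0.0549 to 0.971. The exception was DDX3Y, on the Y chromosome. Every rise or fall in Bama pigs given here carries this limit.

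Across the 13532 genes tested, the responses of the breeds were alike in direction more often than not. The cold effects had the same sign for 64.2% of genes and opposite signs for 35.8%, with Pearson's r = 0.273 and Spearman's rho = 0.354 over genes. The effects of the 2 breeds share no library, but genes are not independent replicates, and r is given as a description. The libraries of the 2 temperatures did not overlap in either breed for 691 genes that lay in the same direction (5.11% of those tested), 327 of them higher and 364 lower in the cold. The same separation with opposite directions was seen for 72 genes (0.532%), 36 higher in cold Hezuo and lower in cold Bama livers and 36 the reverse. Of the 589 genes with an unadjusted p below 0.05 in each breed, 253 were higher in both, 280 lower in both, 41 higher in Hezuo and lower in Bama pigs, and 15 lower in Hezuo and higher in Bama pigs.

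The cold effect itself was called (edgeR, adjusted p below 0.05) for 38 genes in Hezuo pigs (0.281% of those tested), 27 up (0.2%) and 11 down (0.0813%), and for 125 in Bama pigs (0.924%), 52 up (0.384%) and 73 down (0.539%), and 4 genes were called in both. Of the 38, 25 had the same sign in Bama pigs, and of the 125, 108 had the same sign in Hezuo pigs. A gene called in 1 breed and not in the other is not shown to differ between them, so the difference was tested directly. That test called 1 gene, MAGED1 (0.00739% of those tested), while 1085 genes had an unadjusted p below 0.05 (8.02%), 600 with a positive difference, meaning a cold effect higher in Hezuo pigs (4.43%), and 485 with a negative one (3.58%). DESeq2 called 139 of 13522 genes (1.03%), 97 positive and 42 negative, and for 108 of them the 2 cold effects had opposite signs. The median standard error of a difference was 0.30 on the log2 scale, against 0.22 and 0.21 for the cold effect within Hezuo and Bama pigs. By edgeR, 14 genes had an adjusted p below 0.1 and 51 below 0.2, and 37 of the 51 had a positive difference.

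**Figure D1:**
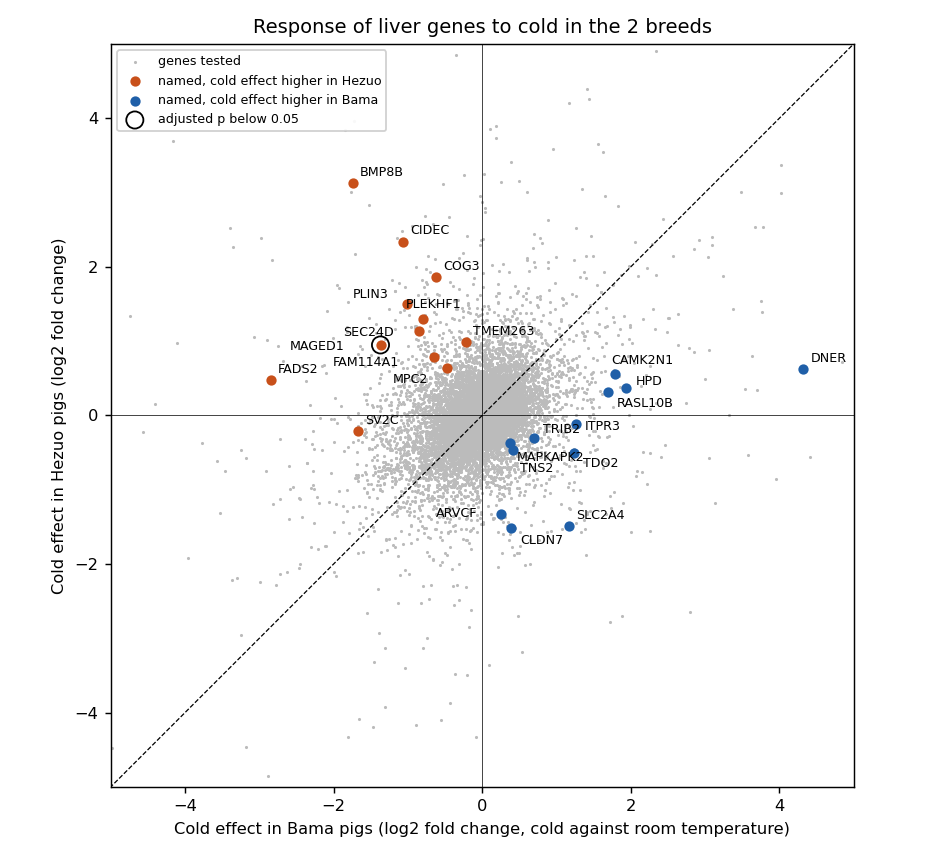
Cold effect of each gene in Bama pigs (x axis) and Hezuo pigs (y axis), both as log2 fold change of cold against room temperature, with 28 genes outside the plotted range. On the dashed line the breeds respond alike; the 24 named genes lie off it, 12 above and 12 below, and the circled gene, MAGED1, has 0.95 in Hezuo and -1.37 in Bama pigs.

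MAGED1 (ENSSSCG00000012318) encodes a member of the MAGE family that takes part in p75 neurotrophin receptor signalling and binds nuclear receptors of the ROR family in the circadian clock. Its RNA stood at 95.6, 93.7 and 63.6 CPM (counts scaled to library size, with TMM factors) in Bama pigs at room temperature and at 33.2, 33.2 and 31.5 CPM in Bama pigs in the cold. In Hezuo pigs it stood at 34.3, 42.4 and 33.6 CPM at room temperature and at 64.0, 70.1 and 78.6 CPM in the cold. The groups did not overlap in either breed, and the levels of cold Bama livers lay close to those of Hezuo livers at room temperature. MAGED1 fell in Bama pigs by 1.37 on the log2 scale (adjusted p = 0.00586) and rose in Hezuo pigs by 0.95 (adjusted p = 0.0449). The difference was 2.32 ± 0.23 (log2, SE; edgeR adjusted p = 0.00512). It was called in 12 of 12 fits that left out 1 library (2.22 to 2.49). Without the 2 Bama cold libraries that hold Y-linked RNA it was 2.29, which was not called (adjusted p = 0.17). With Y-linked RNA as a covariate it was also 2.29 (adjusted p = 0.225).

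The rule for named genes gave 12 genes with a positive difference and 12 with a negative one; MAGED1 is the 1 of these 24 that passed, and the others are given as values. DESeq2 called 24 of the 24. Without the 2 Bama cold libraries with Y-linked RNA 24 of the 24 kept their sign, with adjusted p from 0.17 to 0.82. For 10 of the 24 the libraries of the 2 temperatures did not overlap in either breed and lay in opposite directions. The 24 were chosen by their p in these same libraries, so these counts describe them and are no independent support.

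Of the genes named for a positive difference, PLIN3 and CIDEC act in fat storage. PLIN3, a perilipin that coats newly forming lipid droplets, stood at 45.9, 32.0 and 23.6 CPM in Bama pigs at room temperature and 18.2, 16.3 and 15.7 CPM in the cold, and at 18.8, 23.0 and 19.3 CPM and then 52.0, 40.1 and 81.2 CPM in Hezuo pigs. All cold Hezuo livers lay above Hezuo livers at room temperature and all cold Bama livers below their controls. PLIN3 rose in Hezuo pigs (1.502 ± 0.27, adjusted p = 0.0491), was at -1.01 ± 0.27 in Bama pigs (adjusted p = 0.104), and differed between them by 2.52 ± 0.38 (adjusted p = 0.0700). CIDEC, which lets lipid droplets fuse and grow, rose in Hezuo pigs from 1.98, 1.81 and 1.43 CPM to 8.22, 7.85 and 10.5 CPM (2.34 ± 0.40, adjusted p = 0.0449). In Bama pigs CIDEC was at 4.78, 3.71 and 1.70 CPM and then 0.834, 1.69 and 2.30 CPM, groups that overlapped, and the difference between the breeds was 3.41 ± 0.56 (adjusted p = 0.0798). G0S2, an inhibitor of the lipase that opens lipid droplets, was at 17.8, 14.9 and 4.89 CPM and then 0.584, 2.12 and 1.71 CPM in Bama pigs, against 5.09, 7.62 and 1.39 CPM and then 10.5, 4.87 and 14.0 CPM in Hezuo pigs, where the groups overlapped (difference 4.13 ± 0.96, adjusted p = 0.241).

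FADS2, the desaturase that starts the synthesis of long polyunsaturated fatty acids, was separated by temperature in Bama pigs alone. It stood at 352, 412 and 389 CPM in Bama pigs at room temperature and at 33.4, 60.8 and 66.4 CPM in the cold, so that it fell by 2.84 on the log2 scale (adjusted p = 0.00967). Hezuo livers held 177, 449 and 589.6 CPM at room temperature and 570.4, 526 and 598 CPM in the cold (0.48 ± 0.36, adjusted p = 0.54). The difference was 3.32 ± 0.52 (adjusted p = 0.0700). The fatty acid elongases ELOVL6 and ELOVL2 had large positive differences with wide errors, 3.89 ± 0.99 and 3.56 ± 1.05 (adjusted p = 0.289 and 0.39). ELOVL2 was at 7.19 to 21.2 CPM in all 6 Bama livers, at 3.02, 11.3 and 38.0 CPM in Hezuo livers at room temperature and at 308, 124 and 265 CPM in cold Hezuo livers.

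Other genes named for a positive difference act in membrane traffic. SEC24D, a cargo adaptor of the vesicles that leave the endoplasmic reticulum, was at 123, 83.3 and 61.6 CPM and then 48.4, 45.0 and 55.6 CPM in Bama pigs, and at 48.0, 64.3 and 38.9 CPM and then 95.6, 117 and 121 CPM in Hezuo pigs. Its groups did not overlap in either breed (difference 1.99 ± 0.34, adjusted p = 0.0920). COG3, a subunit of a complex that tethers vesicles at the Golgi, rose in Hezuo pigs from 57.7, 76.2 and 39.7 CPM to 227, 149 and 256 CPM (1.86 ± 0.31, adjusted p = 0.0444). In Bama pigs COG3 was at 145, 98.9 and 65.6 CPM and then 68.7, 65.6 and 66.4 CPM, with a difference between the breeds of 2.49 ± 0.43 (adjusted p = 0.0920). PLEKHF1, a protein of endosomes and lysosomes, rose in Hezuo pigs (1.30 ± 0.23, adjusted p = 0.0464), from 10.01, 10.1 and 6.03 CPM to 27.3, 20.3 and 16.7 CPM. In Bama pigs PLEKHF1 was at 16.8, 18.1 and 14.2 CPM and then 10.2, 8.12 and 10.04 CPM, without overlap, and the difference was 2.09 ± 0.32 (adjusted p = 0.0700). FAM114A1 had 35.8, 34.4 and 27.0 CPM and then 15.8, 24.8 and 21.5 CPM in Bama pigs and 23.3, 27.5 and 27.1 CPM and then 50.1, 37.6 and 46.0 CPM in Hezuo pigs, again without overlap (difference 1.42 ± 0.25, adjusted p = 0.104).

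**Figure D2:**
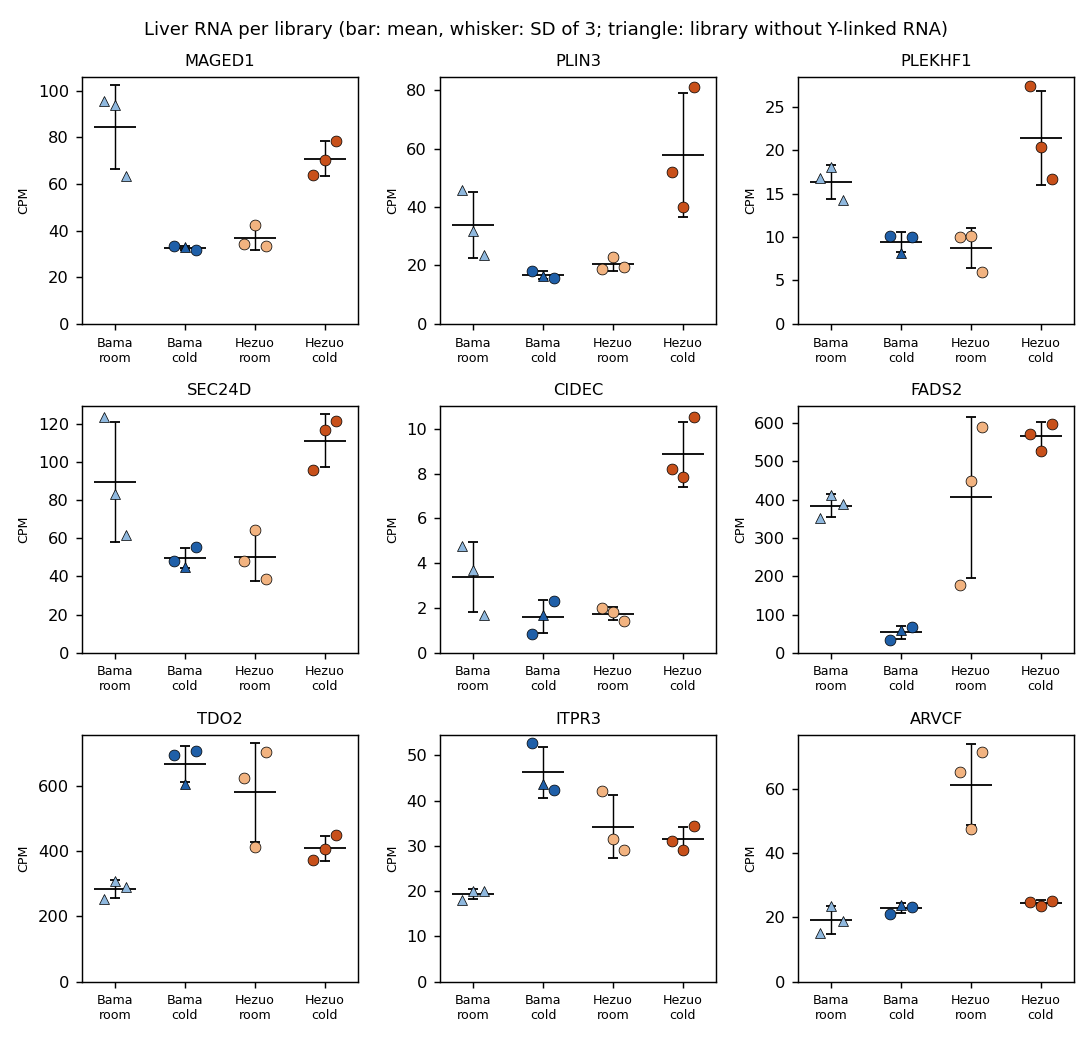
RNA level (CPM, scaled by TMM, linear axis from 0) of 9 named genes in each of the 12 libraries; bars are means and whiskers the SD of 3 pigs, and triangles mark libraries without Y-linked RNA. MAGED1, PLIN3, PLEKHF1 and SEC24D are lower in cold Bama and higher in cold Hezuo livers without overlap, FADS2 and ITPR3 are separated in Bama pigs alone, and ARVCF in Hezuo pigs alone.

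MPC2 is a subunit of the carrier that brings pyruvate into mitochondria. Bama livers held 48.9, 58.1 and 46.1 CPM and then 37.3, 38.9 and 33.8 CPM, and Hezuo livers 44.3, 47.6 and 39.8 CPM and then 64.8, 62.0 and 78.0 CPM. The groups did not overlap in either breed, and the difference was 1.11 ± 0.19 (adjusted p = 0.0873). TMEM263, a membrane protein linked to growth, rose in Hezuo pigs (0.98 ± 0.15, adjusted p = 0.0409) from 26.1, 28.9 and 27.8 CPM to 48.9, 54.6 and 60.3 CPM, while the Bama groups overlapped (difference 1.20 ± 0.21, adjusted p = 0.0920). SV2C, a protein of synaptic and secretory vesicles, fell in Bama pigs from 8.30, 8.68 and 7.83 CPM to 2.42, 2.52 and 2.82 CPM (by 1.67 on the log2 scale, adjusted p = 0.00155), and its Hezuo groups overlapped, with 6 to 8.28 CPM in all 6 livers (difference 1.46 ± 0.23, adjusted p = 0.0700). BMP8B, a signalling protein best known for raising heat production in brown fat, was at 0.690, 1.32 and 1.05 CPM in Hezuo pigs at room temperature and 11.6, 9.01 and 6.24 CPM in the cold, with 4.15, 9.09 and 0.978 CPM and then 1.67, 1.33 and 1.25 CPM in Bama pigs. Its Bama control libraries spread widely, and the difference was 4.87 ± 0.87 (adjusted p = 0.122).

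Among the negative differences, enzymes that break down aromatic amino acids were higher in cold Bama livers. TDO2, which opens the ring of tryptophan, rose in Bama pigs from 253, 308 and 289 CPM to 694, 605 and 706 CPM (1.24 ± 0.19, adjusted p = 0.0171). Hezuo livers held 625, 412 and 705 CPM of TDO2 at room temperature and 373, 406 and 449 CPM in the cold, groups that overlapped (-0.50 ± 0.19, adjusted p = 0.238), and the difference was -1.74 ± 0.27 (adjusted p = 0.0700). HPD, an enzyme of tyrosine breakdown, rose in Bama pigs from 316, 488 and 366 CPM to 1499, 1192 and 1803 CPM (1.94 ± 0.24, adjusted p = 0.00586). Its level in Hezuo livers was 607 to 875 CPM at room temperature and 711 to 1035 CPM in the cold, and the difference was -1.58 ± 0.33 (adjusted p = 0.177). For both enzymes the Bama livers at room temperature were the lowest group.

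Other genes with negative differences belong to calcium signalling, cell junctions and signal transduction. ITPR3, a calcium channel of the endoplasmic reticulum, rose in Bama pigs from 18.0, 19.99 and 20.1 CPM to 52.8, 43.7 and 42.2 CPM (1.26 ± 0.15, adjusted p = 0.00586), while Hezuo livers held 29.1 to 42.2 CPM at room temperature and 29.1 to 34.4 CPM in the cold (difference -1.38 ± 0.21, adjusted p = 0.0700). ARVCF, a catenin of adherens junctions, was separated in the other breed. It fell in Hezuo pigs from 65.3, 47.3 and 71.3 CPM to 24.8, 23.5 and 25.1 CPM (by 1.33 on the log2 scale, adjusted p = 0.0396), to the 15.1 to 23.97 CPM of the 6 Bama livers or slightly above (difference -1.57 ± 0.25, adjusted p = 0.0700). CAMK2N1, an inhibitor of the kinase CaMKII, was higher in the cold without overlap in each breed, by different amounts. It rose in Bama pigs from 10.7, 10.5 and 13.4 CPM to 39.9, 39.2 and 39.7 CPM (1.78 ± 0.17, adjusted p = 0.00155) and went from 15.0, 12.8 and 17.2 CPM to 17.4, 21.5 and 27.0 CPM in Hezuo pigs (0.55 ± 0.17, adjusted p = 0.173), a difference of -1.23 ± 0.24 (adjusted p = 0.172).

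DNER, a transmembrane ligand of Notch receptors, rose in Bama pigs from 0.189, 0.148 and 0.442 CPM to 2.33, 7.15 and 6.53 CPM (adjusted p = 0.00889), with 1.25 to 3.47 CPM in all 6 Hezuo livers. RASL10B, a small GTPase, rose in Bama pigs from 12.7, 12.7 and 13.4 CPM to 38.6, 34.9 and 51.6 CPM (1.69 ± 0.22, adjusted p = 0.00614), with 17.6 to 31.6 CPM in the 6 Hezuo livers. In both genes the Bama livers at room temperature lay below every other library. SLC2A4, the insulin-regulated glucose transporter GLUT4, TRIB2, a pseudokinase, MAPKAPK2, a kinase downstream of p38, and TNS2, a tensin of focal adhesions, were each lower in cold Hezuo and higher in cold Bama livers without overlap. SLC2A4 was at 9.58, 5.67 and 12.1 CPM and then 2.28, 3.49 and 3.92 CPM in Hezuo pigs and at 1.26, 3.04 and 2.84 CPM and then 7.92, 4.10 and 4.10 CPM in Bama pigs (difference -2.67 ± 0.57, adjusted p = 0.184). The differences of TRIB2, MAPKAPK2 and TNS2 were smaller, at -0.997, -0.74 and -0.87 (adjusted p = 0.172, 0.199 and 0.2). CLDN7, a claudin of tight junctions, had 2.90 to 3.30 CPM in Hezuo livers at room temperature and 0.647 to 1.38 CPM in the cold, and 1.67 to 2.62 CPM in Bama livers (difference -1.90 ± 0.41, adjusted p = 0.184).

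Gene lists give the same comparison by function. The 34 pathway lists hold 746 tested genes, each counted once, and MAGED1 is in none of them, so 0 of the list members passed the test of the difference by edgeR. Counts below are therefore of members with an unadjusted p below 0.05, beside 4.43% positive and 3.58% negative over all genes tested. Whatever its p, 49.7% of all genes had a positive difference. Medians stand beside -0.00 for the difference over all genes, -0.01 for Hezuo and -0.01 for Bama pigs. Lists and members were chosen with earlier results of these data known, so counts and medians describe them and are no independent support. In 14 of the 34 lists the median cold effects of the breeds had opposite signs, 11 of them above 0 in Hezuo and below 0 in Bama pigs. Of all genes taken singly, 35.8% had opposite signs. Some of these medians lay near 0, such as 0.07 in Hezuo and -0.09 in Bama pigs for bile acid synthesis and transport. Without the 2 Bama cold libraries with Y-linked RNA the median differences of gluconeogenesis, ketone bodies and circRNA formation, among these lists, changed sign.

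Targets of PPARA had the highest median difference, 1.10, with 0.88 in Hezuo and -0.12 in Bama pigs. Of 19 tested, 18 had a positive difference, beside 49.7% of all genes, and 11 had an unadjusted p below 0.05, all positive. DESeq2 called 7 of them, beside 1.03% of all genes. ACSL1, which activates fatty acids, rose in Hezuo pigs from 705, 667 and 586 CPM to 2253, 2175 and 5641 CPM (2.36 ± 0.39, adjusted p = 0.0409), and was at 950.4, 723 and 576 CPM and then 486, 770.4 and 969 CPM in Bama pigs, where the groups overlapped (difference 2.38 ± 0.53, adjusted p = 0.2). SLC25A20, the carrier of acylcarnitines into mitochondria, rose in Hezuo pigs from 25.2, 30.1 and 22.2 CPM to 64.5, 53.3 and 62.9 CPM (adjusted p = 0.0409), with 20.8 to 33.1 CPM in all 6 Bama livers (difference 1.30 ± 0.27, adjusted p = 0.177). PEX11A, which makes peroxisomes divide, rose in Hezuo pigs from 6.13, 4.76 and 5.84 CPM to 13.8, 18.0 and 13.9 CPM (adjusted p = 0.0464). CIDEC was the fourth target that rose there, beside 0.2% of all genes called up in Hezuo pigs. The list of fatty acid activation, the carnitine shuttle and oxidation shares 7 genes with this one. Its median difference was 0.50 (0.50 in Hezuo, 0.05 in Bama pigs), and 11 of its 28 genes had an unadjusted p below 0.05, all positive. ACADL, a dehydrogenase of long-chain fatty acids, fell in Bama pigs from 45.1, 46.9 and 40.7 CPM to 16.7, 23.6 and 25.2 CPM (adjusted p = 0.0256), while the Hezuo groups overlapped at 52.3 to 76.0 and 68.0 to 82.6 CPM (difference 1.23 ± 0.25, adjusted p = 0.172).

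Lipid droplet and cholesterol genes had medians on both sides of 0. Lipid droplets and lipolysis stood at 0.79 in Hezuo and -0.39 in Bama pigs (difference 0.63, 7 of 16 members positive and 0 negative at an unadjusted p below 0.05). Cholesterol synthesis and uptake stood at 0.74 and -0.39 (difference 0.67, 6 of 23 positive and 0 negative), with 22 of 23 differences above 0. The median difference of that list was 1.18 without cold Bama replicate 3, and 1.17 with 9 positive members without the 2 Bama cold libraries with Y-linked RNA. MVK, a kinase of the mevalonate pathway, was at 105, 105 and 102 CPM and then 27.3, 70.3 and 80.8 CPM in Bama pigs and at 85.2, 45.0 and 55.3 CPM and then 129, 187 and 125 CPM in Hezuo pigs, without overlap in either (difference 2.05 ± 0.50, adjusted p = 0.25). HMGCS1, which supplies that pathway, varied more within groups, with 67.8, 211 and 32.2 CPM in cold Hezuo and 21.1, 41.1 and 104 CPM in cold Bama livers (2.74 ± 0.92, adjusted p = 0.458; 1.68 without cold Hezuo replicate 2). Apolipoproteins and lipoprotein handling had a median difference of 0.17 (7 of 18 positive, 0 negative). It ran from 0.06 without Bama control replicate 2 to 0.58 without cold Bama replicate 3, and was 0.41 with 3 positive members without the 2 Bama cold libraries. In that list APOA4, an apolipoprotein made under fat load, stood at 1895, 1942 and 2698 CPM in cold Hezuo livers against 168, 273 and 13.5 CPM at room temperature, and at 849.6, 981 and 28.4 CPM and then 114, 365 and 38.3 CPM in Bama pigs (5.69 ± 1.78, adjusted p = 0.411). Fatty acid and triglyceride synthesis had a median of -0.01, with 5 members positive and 3 negative of 21. It was -0.55 without Bama control replicate 2 and 0.21 without cold Bama replicate 3.

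**Figure D3:**
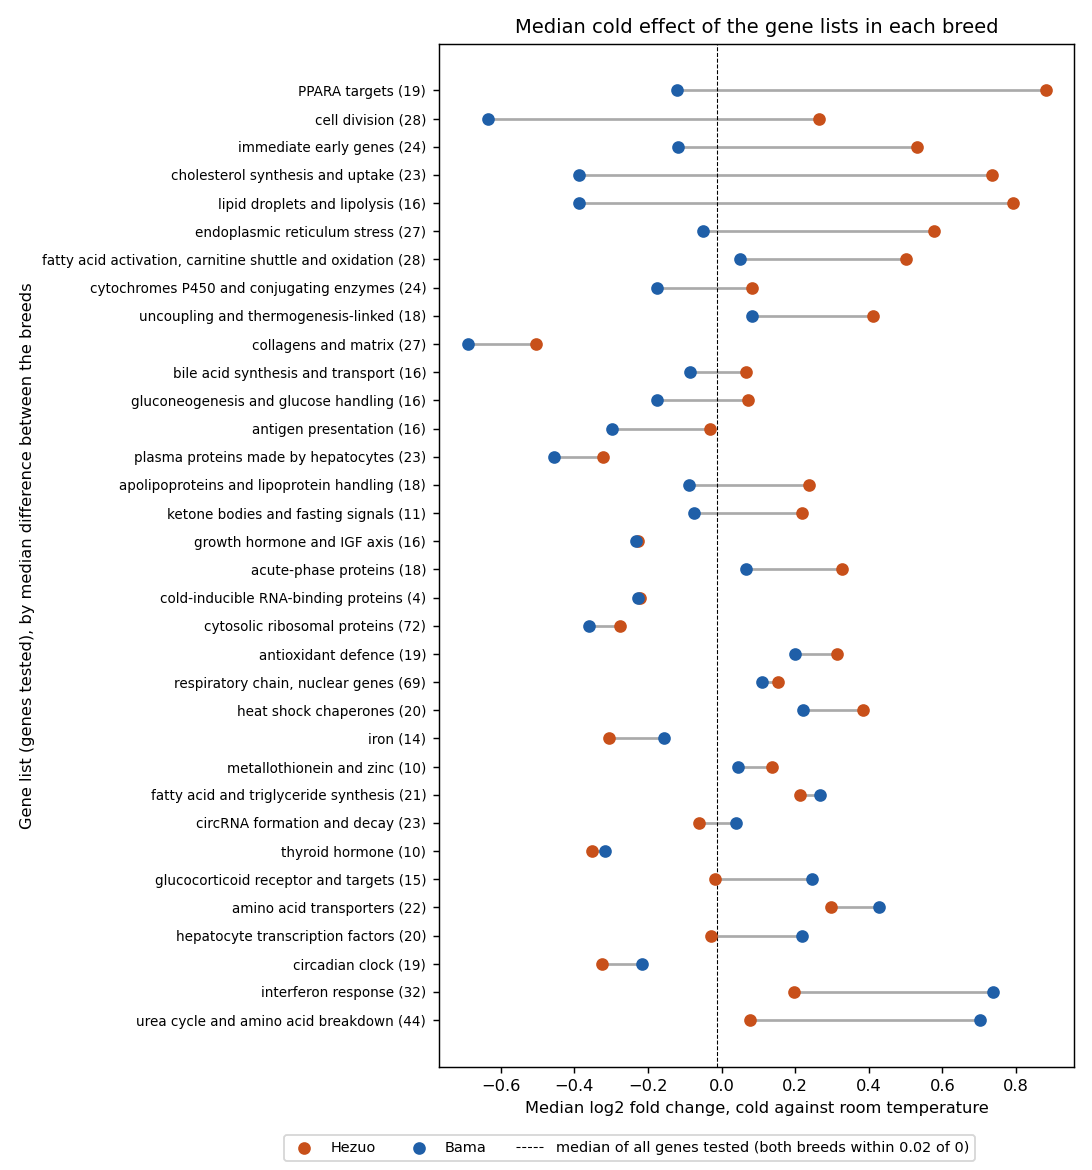
Median log2 fold change of cold against room temperature (x axis) of each of the 34 pathway lists (y axis, number of genes tested in parentheses) in Hezuo and Bama pigs, ordered by the median difference between the breeds; the dashed line is the median of all genes. PPARA targets, at 0.88 and -0.12, head the order, and urea cycle and amino acid breakdown, at 0.08 and 0.70, close it.

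Urea cycle and amino acid breakdown had the lowest median difference, -0.64, with 0.08 in Hezuo and 0.70 in Bama pigs. Of 44 genes, 37 had a negative difference, 13 had an unadjusted p below 0.05, all negative. Without the 2 Bama cold libraries with Y-linked RNA the median was -0.61 and 7 were negative. In Bama pigs 6 of the 44 rose, beside 0.384% of all genes. Besides TDO2 and HPD, GNMT, which uses up surplus methyl groups, rose in Bama pigs from 64.6, 199 and 65.4 CPM to 456, 526 and 590.0 CPM (2.26 ± 0.41, adjusted p = 0.0343), while the Hezuo groups overlapped at 343 to 537 and 368 to 558 CPM (difference -2.17 ± 0.56, adjusted p = 0.289). CPS1, the entry enzyme of the urea cycle, was at 1453, 3908 and 1765 CPM and then 4519, 4363 and 6263 CPM in Bama pigs, with 3952 to 5510.1 and 4003 to 5434 CPM in Hezuo pigs (difference -1.10 ± 0.47, adjusted p = 0.587; -1.66 without Bama control replicate 2). In GNMT as in CPS1, Bama livers at room temperature, replicates 1 and 3 above all, lay below the rest. Of 22 amino acid transporters, 1 was positive and 5 negative at an unadjusted p below 0.05. The negative ones include a row with the symbol MFSD4B (-1.25 ± 0.32, adjusted p = 0.266), whose place in this list is uncertain. The median of the list was -0.19. It was -0.55 without Bama control replicate 2, -0.02 without Bama control replicate 3, and 0.03 with 2 negative members without the 2 Bama cold libraries with Y-linked RNA. SLC6A12, a carrier of betaine and GABA, rose in Bama pigs from 88.8, 71.1 and 87.3 CPM to 214, 236 and 231 CPM (adjusted p = 0.0192), with overlapping groups of 125 to 193 and 147 to 289 CPM in Hezuo pigs (difference -1.01 ± 0.32, adjusted p = 0.411).

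Interferon-response genes had a median difference of -0.52, with 0.20 in Hezuo and 0.74 in Bama pigs (5 of 32 negative and 0 positive). The level in cold Bama livers depended on the animal. ISG15, a ubiquitin-like protein induced by interferon, was at 51.2, 26.5 and 8.43 CPM there, against 6.91 to 10.2 CPM in Bama pigs at room temperature and 3.06 to 8.08 CPM in the 6 Hezuo livers (-1.99 ± 0.77, adjusted p = 0.542). RSAD2 and IFI44, also induced by interferon, were highest in the same replicate 1 and lowest in replicate 3 of the cold Bama group. Without the 2 Bama cold libraries with Y-linked RNA, replicates 1 and 3, the median was -0.38 with 3 negative members. It was -0.08 without replicate 1 alone and -0.80 without replicate 3 alone. Without replicate 1 the differences of ISG15, RSAD2 and IFI44 were -1.27, -1.23 and -0.58. Clock genes were mixed, with 2 of 19 positive and 5 negative. CIART and NR1D2, repressors of the clock, had differences of -1.36 ± 0.45 and -1.32 ± 0.43 (adjusted p = 0.427 and 0.428), that of CIART being -0.90 without Hezuo control replicate 3, and neither temperature separated the NR1D2 levels in either breed.

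Of the lists of stress and growth, immediate early genes, endoplasmic reticulum stress and cell division had positive medians. Those of heat shock chaperones (0.02, with 1 of 20 positive and 2 negative), antioxidant defence (0.07, with 0 of 19) and the growth hormone and IGF axis (0.13, with 1 of 16 positive and 1 negative) lay nearer to 0. Immediate early genes had a median difference of 0.82 (0.53 in Hezuo, -0.12 in Bama pigs; 6 of 24 positive, 0 negative). FOS, a subunit of the transcription factor AP-1, was at 47.1, 81.1 and 53.9 CPM in cold Hezuo livers, above the 8.28 to 35.4 CPM of Hezuo livers at room temperature, and its Bama groups overlapped (2.51 ± 1.02, adjusted p = 0.574; 1.43 without Bama control replicate 2). None of the immediate early genes (0 of 24) had an unadjusted p below 0.05 without the 2 Bama cold libraries with Y-linked RNA. Endoplasmic reticulum stress stood at 0.52 (0.58 and -0.05), with 24 of 27 differences above 0 and 4 of 27 positive at an unadjusted p below 0.05. The median was 0.14 without Bama control replicate 1 and 0.81 without the 2 Bama cold libraries with Y-linked RNA. ATF3, a transcription factor of stress responses in both lists, had a difference of 2.87 ± 0.84 (adjusted p = 0.383), and EIF2AK3 and XBP1, sensors and effectors of unfolded proteins, had 0.70 ± 0.26 and 0.61 ± 0.26 (adjusted p = 0.493 and 0.583), with 0.44 for EIF2AK3 without cold Hezuo replicate 3. Cell division had a median difference of 0.88 (0.27 and -0.63), with 26 of 28 above 0 and 4 of 28 positive at an unadjusted p below 0.05. In that list RRM2, which makes DNA precursors, was at 5.31 to 6.98 and 8.24 to 11.1 CPM in Hezuo pigs and at 8.42 to 30.2 and 7.51 to 16.4 CPM in Bama pigs.

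IGFALS and PROC, both made by hepatocytes, were lower in the cold in each breed, by different amounts. IGFALS, which keeps insulin-like growth factors in the blood, fell in Bama pigs from 65.7, 77.9 and 51.8 CPM to 14.0, 12.9 and 20.9 CPM (by 2.03 on the log2 scale, adjusted p = 0.00242). In Hezuo pigs it went from 155, 138 and 185 CPM to 100.1, 99.2 and 78.8 CPM (-0.78 ± 0.21, adjusted p = 0.129), and the difference was 1.25 ± 0.29 (adjusted p = 0.241). PROC, the clotting inhibitor protein C, fell in Bama pigs by 1.35 (adjusted p = 0.00242), from 1137 to 1226 CPM down to 408 to 519 CPM. Hezuo livers held 1287 to 1433 CPM of PROC at room temperature and 1016 to 1188 CPM in the cold (difference 1.03 ± 0.20, adjusted p = 0.172). For both genes the temperatures did not overlap in either breed. Among plasma proteins made by hepatocytes, 22 of 23 had a positive difference but 1 of 23 at an unadjusted p below 0.05, near the share of all genes. Their medians were -0.32 in Hezuo and -0.45 in Bama pigs, where 5 fell, beside 0.539% of all genes. GATM, which starts creatine synthesis, was at 1164, 1689 and 1000.0 CPM and then 334, 693 and 260.4 CPM in Bama pigs and at 657, 712 and 651 CPM and then 1472, 847 and 877 CPM in Hezuo pigs, in opposite directions without overlap (2.24 ± 0.50, adjusted p = 0.2). RBM3, an RNA-binding protein known for its induction by cold, was not higher in the cold in either breed: it was at 10.9 to 21.1 and then 4.59 to 8.41 CPM in Bama pigs and at 6.21 to 14.0 and then 7.16 to 9.47 CPM in Hezuo pigs (difference 0.95 ± 0.46, adjusted p = 0.661).

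Markers of the cell types that liver can hold were read the same way, and 0 of their members passed the test of the difference. At an unadjusted p below 0.05, 10 hepatocyte markers held 1 positive and 1 negative member, and 10 sinusoidal endothelium markers 2 positive. Of 14 T and NK cell markers and of 12 stellate cell and fibroblast markers, 1 each was positive. Of 7 cholangiocyte markers 1 was negative. The 12 Kupffer cell and macrophage, 8 B and plasma cell, 6 neutrophil and 5 red blood cell precursor markers held 0. So did 3 adipocyte, 3 smooth and skeletal muscle and 1 exocrine pancreas and gut markers. Over all genes 4.43% were positive and 3.58% negative. Hepatocyte markers summed to 124896 to 140748 CPM in Bama pigs at room temperature, 45626 to 108371 in the cold, and 167979 to 187798 and then 81598 to 156578 CPM in Hezuo pigs. Albumin makes up much of these sums. The median cold effect over the 10 markers was 0.00 in Hezuo and -0.32 in Bama pigs. Macrophage markers summed to 2272 to 3366 and then 3308 to 5592 CPM in Bama pigs and to 1586 to 2469 and then 2320 to 4218 CPM in Hezuo pigs. Red blood cell precursor markers had a median difference of 1.10 and spread widely, from 1394 to 5300 and then 234 to 3606 CPM in Bama pigs and from 4460 to 14804 and then 2309 to 20961 CPM in Hezuo pigs. The median was 0.08 without cold Hezuo replicate 3, 0.16 without Bama control replicate 3, 2.65 without cold Bama replicate 2 and -0.06 without the 2 Bama cold libraries with Y-linked RNA. Neutrophil markers, at -1.24, summed to 16.2 to 26.2 and then 30.9 to 52.4 CPM in Bama pigs and to 18.1 to 68.4 and then 21.3 to 58.4 CPM in Hezuo pigs, with a median of -0.21 without Hezuo control replicate 2 and -1.99 without cold Hezuo replicate 3. The part of these cells in the gene results was not tested.

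Y-linked and X-linked genes show how the animals differ. DDX3Y, a Y-linked helicase gene, had 2, 3 and 0 counts in Bama controls and 2284, 0 and 3769 in the cold, with 1331 to 2407 counts in the 6 Hezuo livers. KDM6A is an X-linked gene that is also active on the second X chromosome of females. It was at 54.5, 63.6 and 44.9 CPM and then 26.3, 48.2 and 23.7 CPM in Bama pigs. Hezuo livers held 28.8 to 33.2 CPM, so cold Bama replicate 2 lay with the Bama controls. KDM6A was the 1 of 6 X-linked genes tested as a list with an unadjusted p below 0.05 for the difference. The list's median cold effect was -0.09 in Bama and 0.10 in Hezuo pigs. Its summed levels overlapped in Bama pigs, at 803 to 970 and then 729 to 934 CPM. In that list ZFX was split like KDM6A, at 65.7 to 68.6 and then 35.4, 73.6 and 33.1 CPM. For DDX3X the split was small, at 237, 342 and 243 and then 232, 282 and 225 CPM. MAGED1 is also X-linked. At room temperature it was at 63.6 to 95.6 CPM in the Bama livers, which lack Y-linked RNA, and at 33.6 to 42.4 CPM in the Hezuo livers, which hold it, while the cold Bama livers held 31.5 to 33.2 CPM, 1 of them without Y-linked RNA. The part of the animals' sex in this result cannot be told apart from cold and breed.

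For circRNAs, 9032 were tested and 8 were called for the difference (0.0886%), 2 positive and 6 negative, while 512 had an unadjusted p below 0.05 (5.67%), 279 positive (3.09%) and 233 negative (2.58%). The temperatures did not overlap in either breed for 38 circRNAs in opposite directions (0.421%) and for 56 in the same direction (0.62%). DESeq2 called 2 (0.0221%). The depth per circRNA was low, so counts are given. Coordinates are those of the deposited table, whose genome build is not given in the sources used here.

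The smallest adjusted p was that of a circRNA of CYP3A39, a cytochrome P450 that oxidizes drugs and steroids, built from annotated exons at chr3:6746550-6758714 on the plus strand. It had 5, 28 and 7 back-splice reads in Bama controls and 1, 1 and 0 in the cold, against 0, 1 and 0 and then 1, 41 and 50 in Hezuo pigs. Cold Hezuo replicates 2 and 3 thus held nearly all Hezuo reads, and replicate 1 held 1. The difference was called in 12 of 12 fits that left out 1 library (edgeR adjusted p = 3.3e-12 with all libraries) and without the 2 Bama cold libraries with Y-linked RNA, but not by limma voom (adjusted p = 0.918). Linear CYP3A39 RNA had a difference of -0.07 ± 0.33, and the other 17 circRNAs listed for the gene summed to 69 to 224 reads per library in Bama and 106 to 172 in Hezuo pigs. The CYP3A genes of the pig are near-identical neighbours, so which of them gave these reads is uncertain. A circRNA of CYP2C33, another cytochrome P450, at chr14:111253510-111282469 on the minus strand, had 24, 25 and 7 and then 7, 21 and 0 reads in Bama pigs, against 0, 1 and 0 and then 2, 10 and 14 in Hezuo pigs (adjusted p = 0.0314). Linear CYP2C33 RNA had a difference in the same direction, 1.22 ± 0.45 (edgeR adjusted p = 0.493). The circRNA also comes from a family of similar genes and is uncertain in the same way. Its call held in 4 of 12 fits that left out 1 library, and without the 2 Bama cold libraries with Y-linked RNA its difference was 4.08 (adjusted p = 0.933).

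NDFIP2, an adaptor that activates ubiquitin ligases of the NEDD4 family, gave 2 of the called circRNAs, both starting at position 51531489 of chromosome 11 and ending at 51547197 and 51540684. The longer one had 25, 34 and 21 and then 59, 68 and 179 reads in Bama pigs, against 26, 30 and 22 and then 31, 26 and 12 in Hezuo pigs (-2.30 ± 0.49, adjusted p = 0.00697). The shorter one had 92, 95 and 105 and then 141, 286 and 408 reads in Bama pigs, against 150, 144 and 122 and then 136, 145 and 199 in Hezuo pigs (-1.55 ± 0.33, adjusted p = 0.00697). Both rose in Bama pigs without overlap, by 2.24 and 1.84, and linear NDFIP2 RNA had a difference of -0.66 ± 0.39 (adjusted p = 0.743). The 2 circRNAs share a start and a host and are not independent. Their calls held in 7 and 6 of 12 fits that left out 1 library, and without cold Bama replicate 3 the differences were -1.61 and -1.13 (adjusted p = 0.81 and 0.709). They were -1.52 and -1.42 without the 2 Bama cold libraries with Y-linked RNA (adjusted p = 0.933 for each). The rise in Bama pigs was then called for the shorter one (1.75, adjusted p = 7e-05) and not for the longer one (1.51, adjusted p = 0.636). Of 9 tested circRNAs of NDFIP2, 6 had a negative difference.

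SLC38A1, an importer of glutamine, had a called circRNA at chr5:77049090-77058522 on the minus strand. It had 7, 6 and 13 reads and then 42, 30 and 34 in Bama pigs, against 27, 15 and 12 and then 7, 16 and 17 in Hezuo pigs (-2.78 ± 0.66, adjusted p = 0.0314). Linear SLC38A1 RNA had a difference of -1.66 ± 0.71 (adjusted p = 0.593). In Bama pigs the cold effect was 2.21 ± 0.52 for the linear RNA and 2.46 ± 0.47 for the circRNA. A circRNA at chr17:5052491-5077828 on the minus strand, whose host has no symbol, had 1, 2 and 0 and then 9, 8 and 14 reads in Bama pigs, against 6, 9 and 13 and then 1, 2 and 5 in Hezuo pigs (adjusted p = 0.0314). The calls for this circRNA and that of SLC38A1 each held in 2 of 12 fits that left out 1 library, and neither was called without the 2 Bama cold libraries with Y-linked RNA. The difference for SLC38A1 was then -2.28 (adjusted p = 0.933). The last 2 called circRNAs lie on chromosome Y, at 9910950 to 9917192 and 9399938 to 9414823, with 0 reads in the 3 Bama livers at room temperature and in cold Bama replicate 2, 11 and 22 or 14 and 21 in the other cold Bama livers, and 7 to 19 in each Hezuo liver (adjusted p = 0.00452 and 0.0314). They follow the presence of Y-linked RNA. Without the 2 Bama cold libraries that hold it, 1 circRNA was called over all tested, that of CYP3A39.

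Other circRNAs were named by smallest p and did not pass (edgeR adjusted p = 0.232 to 0.429). On the positive side, a circRNA of PNISR, a splicing-related protein, had 15, 19 and 20 and then 2, 3 and 2 reads in Bama pigs and 1, 1 and 0 and then 2, 3 and 7 in Hezuo pigs. A circRNA of PNPLA3, a lipid droplet protein, had 4, 2 and 8 and then 0, 0 and 0 reads in Bama pigs and 0, 0 and 0 and then 0, 2 and 5 in Hezuo pigs. Those of AMDHD1, AKAP7, SSR3 and EPB41L4A had at most 13 reads in any library. On the negative side, a circRNA of CP, the copper-carrying plasma protein ceruloplasmin, had 0, 6 and 13 and then 10, 11 and 31 reads in Bama pigs and 1, 2 and 4 and then 0, 0 and 0 in Hezuo pigs. A circRNA of IL6ST, the signalling receptor shared by cytokines of the IL-6 family, had 3, 3 and 5 and then 7, 11 and 6 reads in Bama pigs and 2, 5 and 5 and then 0, 0 and 0 in Hezuo pigs. By level scaled to library size, the circRNAs of PNISR, CP, IL6ST and WRN were separated in each breed in opposite directions, at counts too low for a firm statement. Those of WRN, WDFY2 and CPB2 complete the negative side, with differences of -4.83 ± 1.31 for WRN (-7.63 without cold Hezuo replicate 1) and -1.75 ± 0.52 for WDFY2.

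**Figure D4:**
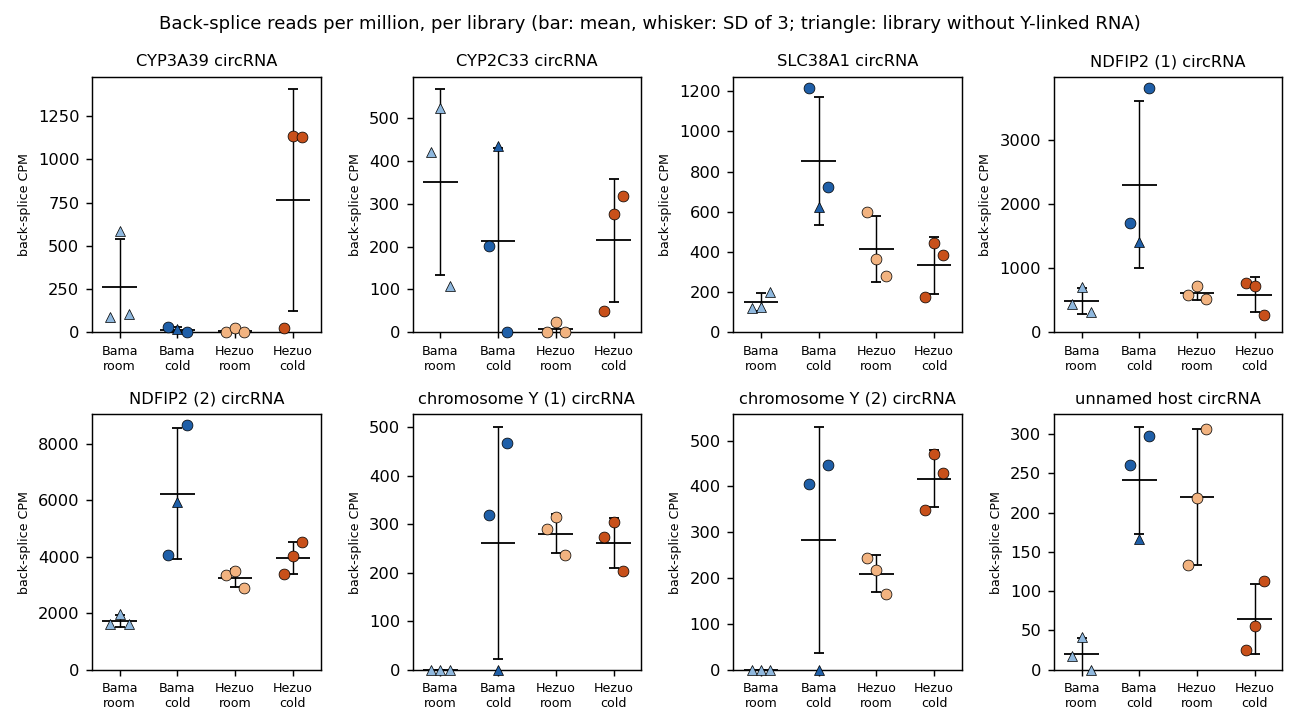
Back-splice CPM (scaled by TMM over circRNAs, linear axis from 0) of the 8 called circRNAs in each of the 12 libraries; bars are means, whiskers the SD of 3 pigs, and triangles mark libraries without Y-linked RNA. The NDFIP2 and SLC38A1 circRNAs are separated by temperature in Bama pigs, and the 2 chromosome Y circRNAs are at 0 in the 4 libraries without Y-linked RNA.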

How the data were processed

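RNA of 12 livers was analysed, 3 pigs for each breed and temperature, grouped by the labels' titles. The authors deposited estimated counts and FPKM per gene, and counts of back-splice reads and RPM per circRNA; FPKM and RPM were not used. Reads were trimmed with fastp, per the submitters' processing notes, while aligner, counter and build were not given in the sources used here. Estimated counts were rounded to whole numbers (9.48% of nonzero values were fractional). The library kit marks strand, per the labels' protocols, but no source says whether counting used it.

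In R 4.3.3, edgeR 4.0.16 fitted a robust quasi-likelihood model with 4 groups, TMM scaling (factors 0.874 to 1.197) and filterByExpr (minimum count 10, minimum total 15); a circRNA was kept with 2 or more counts in 3 or more libraries and a total of 10 or more. The difference between the breeds was the contrast of the 2 cold effects, with p adjusted by Benjamini-Hochberg over all genes or all circRNAs and called below 0.05. The standard error is the absolute log2 fold change over the square root of F. The fit was tested on simulated data. The deposited table names 14940 of its 21169 genes; Ensembl symbols were added for 889 and RefSeq symbols for 706. Replicates are separate pigs, and their log2 levels correlated at 0.971 to 0.985 within groups. Alternatives were DESeq2 1.42.0, limma 3.58.1 voom, other scalings and filters, a replicate block, Y-linked RNA as a covariate and each library left out; voom and leaving out 2 Bama libraries were added after the data were seen.

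Named genes were the called genes and, to fill 12 per direction, those of smallest p, with a symbol and at least 1 CPM in the highest group, the 6 of smallest p with opposite effects, and up to 3 members of each list by smallest p; named circRNAs were called ones, filled to 8 per direction by smallest p, and called circRNAs whose host has no symbol were named after their values were seen. Members and lists were chosen with earlier results of these data known.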

Additional observations from a re-analysis of the deposited data

Results flagged for a closer look

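MAGED1 is the 1 gene whose response to cold differed between the breeds by the test of the difference itself (edgeR adjusted p = 0.00512), with cold effects of opposite sign and no overlap between the temperatures in either breed. It was not called with Y-linked RNA as a covariate.

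The other 8 are circRNAs, each with a difference between the breeds by the same test. They are the circRNA of CYP3A39 (adjusted p = 3.3e-12), the longer and the shorter circRNA of NDFIP2 (0.00697 for each), those of SLC38A1 and CYP2C33 (0.0314 for each), the one on chromosome 17 whose host has no symbol (0.0314), and 2 on chromosome Y (0.00452 and 0.0314). The 2 on chromosome Y follow the presence of Y-linked RNA in the libraries. The call for CYP3A39 rests in Hezuo pigs on cold replicates 2 and 3, which held 41 and 50 reads, while cold replicate 1 held 1. With 1 library left out, the NDFIP2 calls held in 7 and 6 of 12 fits. That of CYP2C33 held in 4 of 12, and those of SLC38A1 and chromosome 17 in 2 of 12 each. DESeq2 called 2 circRNAs over all tested.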

How the results depend on the processing

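Limits: 3 pigs per group leave 8 residual degrees of freedom, back-splice counts are low, and Y-linked RNA cannot be told apart from cold in Bama pigs. The fit pools its estimate of spread over genes or over circRNAs. The p of a circRNA therefore does not rest on the spread among its own pigs alone, and a small p can stand beside replicates that differ widely. The titles use the same pig numbers at both temperatures, and the main model did not pair them. Deviations of same-numbered libraries correlated at -0.266 to 0.215 over all groups, other pairs at -0.307 to 0.209. Between the temperatures of Bama pigs, same-numbered libraries stood at 0.031 to 0.215 and others at -0.229 to 0.013. In Hezuo pigs the ranges were -0.0985 to 0.0962 and -0.0876 to 0.135. Bama numbers 1 and 3 held Y-linked RNA in the cold and not at room temperature. With the replicate block, 1 gene and 5 circRNAs were called, and MAGED1 stayed called (adjusted p = 0.0264).

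Of genes, 1 was called, with opposite cold effects. It was 1 with other scaling, with other filters, without robust fitting and with voom, 139 (108 opposite) with DESeq2, and 0 (0 opposite) with Y-linked RNA as a covariate, where 737 had an unadjusted p below 0.05, or without the 2 Bama cold libraries that hold it, where 811 had. Leaving out 1 library gave 1 to 23 (1 to 23 opposite): the count was 23 when Bama control replicate 3 was left out, 11 for cold Bama replicate 2, 5 for Bama control replicate 2 and 1 to 3 for the others. Scaling by total counts moved the median difference over all genes to -0.10 and changed no call.

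Of circRNAs, 8 were called. It was 2 with DESeq2, 4 without the count filter, 0 with a stricter one (102 with an unadjusted p below 0.05), 13 without robust fitting, 2 scaled by gene library sizes, 4 with voom, 1 with the Y-linked covariate, 1 without the 2 Bama cold libraries and 1 to 8 with 1 library left out, the lowest for Bama control replicate 1 and cold Bama replicate 3. With the covariate and without the 2 libraries, DDX3Y turned to 3.88 and 3.86 and the chromosome Y circRNA at 9399938 to 0.98 and 1.02. The causes of these changes were not tested. Some settings also leave fewer libraries or genes. Of the other values of single genes and circRNAs, 1722 kept their side of the threshold, 57 passed it and 96 lost it.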

Other observations

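SEC24D and COG3 belong to transport between the endoplasmic reticulum and the Golgi, the route by which hepatocytes secrete plasma proteins and lipoproteins. A list of 69 genes of this route was chosen after their values were seen, so it gets no test. SEC24D and COG3 are members and are counted below, so the counts are a description. Of 68 genes tested, 0 passed the test of the difference by edgeR. A positive difference was seen for 58, beside 49.7% of all genes. An unadjusted p below 0.05 was seen for 24, all positive, beside 4.43% of all genes. The median difference was 0.42, with 0.32 in Hezuo and -0.12 in Bama pigs. How this median moves when a library is left out was not tested. KDELR3, a receptor that returns proteins to the endoplasmic reticulum, had 2.50 ± 0.46 (adjusted p = 0.122), ARFGAP3, a regulator of coat vesicles, 1.501 ± 0.32 (adjusted p = 0.184), ARCN1, a subunit of the COPI coat, 0.87 ± 0.20 (adjusted p = 0.241), and LMAN1, a cargo receptor for clotting factors, 1.12 ± 0.29 (adjusted p = 0.289).

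Further genes of the lists are given as values. SERPINA6, the corticosteroid-binding globulin, was at 143, 272 and 186 CPM and then 8.63, 36.7 and 5.48 CPM in Bama pigs, against 214, 169 and 321 CPM and then 286, 116 and 58.0 CPM in Hezuo pigs (2.95 ± 1.01, adjusted p = 0.473). SAA2, a serum amyloid A, was at 81.3, 1438 and 470.1 CPM in cold Hezuo livers and 9.14 to 31.4 CPM at room temperature, with 18.7, 249 and 10.4 CPM and then 78.7, 40.1 and 60.2 CPM in Bama pigs (5.83 ± 1.75, adjusted p = 0.39; 3.17 without Bama control replicate 2), while the 18 acute-phase genes tested had a median of 0.11; near-identical copies of this gene make its counts uncertain. TFRC, the transferrin receptor, fell in Bama pigs from 724, 876 and 974 CPM to 427, 273 and 369.7 CPM (adjusted p = 0.0451), with 235 to 343 and then 152 to 296 CPM in Hezuo pigs (0.90 ± 0.36, adjusted p = 0.55). GSTA4, which clears products of lipid oxidation, rose in Hezuo pigs from 26.7, 21.5 and 28.1 CPM to 52.4, 94.9 and 49.3 CPM (adjusted p = 0.0469), with 16.2 to 23.7 CPM in the 6 Bama livers (1.44 ± 0.34, adjusted p = 0.241). GPD1, of the glycerol phosphate shuttle, was at 94.1 to 103 CPM and then 202 to 281 CPM in Hezuo pigs and 45.5 to 113 CPM in the 6 Bama livers (1.54 ± 0.41, adjusted p = 0.312).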
